A study of Mus musculus with 6 samples.

Results

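Tmem176a, Tmem176b, Ms4a4b, Ms4a4c and Ms4a6b were followed in messenger RNA of mouse γδT17 cells before and after culture. These 5 genes were taken by symbol from the 26771 genes that the 6 tables list. They were selected on their FPKM values in these same libraries, so their levels and differences are described without a test. γδT17 cells are γδ T cells that make interleukin-17. All cells came from spleens of C57BL/6 TCRβ-/- mice, which lack the T cell receptor β chain, so this deletion is shared by both groups. Initial cells were sorted out of uncultured splenocytes, and the sources used here give no gate for that sort. Induced cells grew out of splenocytes under a protocol with IL-1β and IL-23 and were collected on day 8, after which the Pan T Cell Isolation kit II was used to purify them. Mice A, B and C gave 1 library each to both groups (n = 3), and the sources used here state no age.

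The proteins of these genes belong to the MS4A family and its relatives, small proteins that cross the membrane several times and are best known from CD20, the product of Ms4a1 on B cells. Tmem176a and Tmem176b encode related cation channels of internal membranes that, in mice, are abundant in type 17 lymphocytes and in dendritic cells. Ms4a4b is expressed in T cells, where its product associates with the receptor GITR and modulates activation and proliferation. Ms4a6b is a further MS4A gene of T cells, and Ms4a4c is a close relative of Ms4a4b in the same cluster.

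The promoter windows are shown because the pair of Tmem176 genes moved together and, by the windows given, starts 346 bases apart. A further reason is that Ms4a4b and Ms4a6b each have a neighbouring copy at a much lower level. RefSeq windows of build GRCm38.p6 run from 250 bases before to 50 after a gene's start, all 5 genes had an entry, and where the table holds several windows the first is given. These RefSeq starts can lie inside the gene spans given further on. That of Ms4a4c is 11407661 in a span from 11404770, and that of Ms4a6b 11518559 in a span from 11516512. Other starts of these genes were not searched. Tmem176b lies at chr6:48841088-48841387 on the minus strand and Tmem176a at chr6:48841233-48841532 on the plus strand. The capitals mark the 155 bases that these windows share on opposite strands.
Tmem176b: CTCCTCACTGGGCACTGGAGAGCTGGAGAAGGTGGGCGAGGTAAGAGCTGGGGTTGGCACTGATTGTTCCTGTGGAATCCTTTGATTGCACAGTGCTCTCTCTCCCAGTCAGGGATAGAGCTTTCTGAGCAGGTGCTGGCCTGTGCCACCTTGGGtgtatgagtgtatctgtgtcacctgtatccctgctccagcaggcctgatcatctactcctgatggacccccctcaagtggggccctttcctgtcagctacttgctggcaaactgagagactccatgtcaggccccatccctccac
Tmem176a: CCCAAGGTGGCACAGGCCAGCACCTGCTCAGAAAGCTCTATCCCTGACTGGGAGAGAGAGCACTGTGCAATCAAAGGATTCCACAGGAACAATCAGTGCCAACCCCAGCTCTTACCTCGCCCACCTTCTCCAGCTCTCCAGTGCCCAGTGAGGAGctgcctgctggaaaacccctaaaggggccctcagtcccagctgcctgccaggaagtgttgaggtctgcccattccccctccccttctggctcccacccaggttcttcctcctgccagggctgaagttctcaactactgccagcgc
In the windows of Ms4a4b (chr19:11443308-11443607, plus strand) and Ms4a4c (chr19:11407411-11407710, plus strand), capitals mark runs of at least 12 identical aligned bases. Of 282 aligned bases 80.9% were identical, in part as 8 such runs.
Ms4a4b: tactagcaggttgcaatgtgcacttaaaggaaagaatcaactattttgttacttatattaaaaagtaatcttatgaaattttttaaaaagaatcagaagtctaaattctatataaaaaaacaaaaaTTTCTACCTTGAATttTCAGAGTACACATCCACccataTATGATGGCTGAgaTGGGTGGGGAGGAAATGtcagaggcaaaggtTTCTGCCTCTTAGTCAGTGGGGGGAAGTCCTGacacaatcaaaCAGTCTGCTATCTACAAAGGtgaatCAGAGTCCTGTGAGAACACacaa
Ms4a4c: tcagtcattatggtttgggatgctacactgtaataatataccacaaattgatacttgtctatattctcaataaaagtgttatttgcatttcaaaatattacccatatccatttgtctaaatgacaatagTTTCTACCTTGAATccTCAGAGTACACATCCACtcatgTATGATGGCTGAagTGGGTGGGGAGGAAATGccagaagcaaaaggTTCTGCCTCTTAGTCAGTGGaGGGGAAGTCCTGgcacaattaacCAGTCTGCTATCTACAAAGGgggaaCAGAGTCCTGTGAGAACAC
The windows of Ms4a6b (chr19:11518309-11518608, plus strand) and of its neighbour Ms4a6c (chr19:11469118-11469417, plus strand) are marked in the same way. Here 85.9% of 220 aligned bases were identical, with a longest run of 48.
Ms4a6b: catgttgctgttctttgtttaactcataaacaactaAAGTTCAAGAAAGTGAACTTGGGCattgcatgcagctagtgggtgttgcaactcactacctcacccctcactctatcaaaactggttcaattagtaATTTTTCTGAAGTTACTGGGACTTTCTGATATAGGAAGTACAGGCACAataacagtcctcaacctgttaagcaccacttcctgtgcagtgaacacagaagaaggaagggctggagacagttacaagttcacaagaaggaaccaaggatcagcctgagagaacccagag
Ms4a6c: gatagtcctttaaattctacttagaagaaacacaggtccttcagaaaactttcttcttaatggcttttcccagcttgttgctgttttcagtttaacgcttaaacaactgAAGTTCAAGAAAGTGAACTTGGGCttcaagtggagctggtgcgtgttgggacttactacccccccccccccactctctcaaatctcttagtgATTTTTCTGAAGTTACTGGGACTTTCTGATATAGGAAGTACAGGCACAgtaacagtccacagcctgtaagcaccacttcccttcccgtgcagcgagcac
Between Ms4a4b and Ms4a6b 63.5% of 255 aligned bases matched, with no run of that length. On both strands, none of these 6 windows held AGGTCA (a core bound by nuclear receptors, in 16.3% of 32851 promoter windows) or TTCNNNGAA (bound by STAT factors, in 8.3%). GGAAGT, bound by Ets factors and found in 23.8% of all windows, was in every window except that of Tmem176b. An absent match says only that these letters are not in these windows.

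The values are FPKM, fragments scaled to transcript length and to the size of the library, so levels are per length and can be set side by side between genes. The steps between low values put the libraries at roughly 19100000 to 22600000 fragments each. At that depth the lowest value of the 5 genes, Tmem176a in Initial library B, rested on about 307 fragments for a 1 kb transcript, a counting error of 5.71%. The libraries of a group did not behave alike for these genes. Induced library C stood apart from Induced A and B: of 6242 genes with a mean of at least 10 FPKM in Induced cells, 67 were at least 2-fold from the mean of the other libraries on the log2(FPKM + 1) scale in C, against 41 in B, 1 in A and 28 to 34 of 6194 genes in the Initial libraries. Results on the 5 genes are therefore given with and without it. The 10 T cell markers were listed in each library (1 rose and 5 fell by the test described further on), with summed levels of 2950 to 3200 FPKM in Initial and 1910 to 2110 FPKM in Induced cells. In bulk samples, fewer cells of a type and less RNA per cell cannot be told apart.

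Both Tmem176 genes were far higher after culture. Tmem176b (ENSMUSG00000029810, chromosome 6, 48833818 to 48841496, GRCm38, minus strand) had 37.1, 32.8 and 36.8 FPKM in Initial libraries A, B and C, against 679, 693 and 426 FPKM in the Induced libraries of the same mice. Every Induced library was above every Initial library, and C was the lowest of the Induced libraries. The means were 35.6 ± 2.42 and 599.5 ± 150.0 FPKM (SD, n = 3), a ratio of 16.9 and a difference of 4.01 on the log2(FPKM + 1) scale, which is used for all differences here. Tmem176a (ENSMUSG00000023367, chromosome 6, 48840919 to 48847071, plus strand) had 19.6, 16.1 and 18.4 FPKM in the Initial libraries and 299, 314 and 199 FPKM in the Induced libraries. Its groups did not overlap either, and its order of Induced libraries was the same as that of Tmem176b. The means were 18.0 ± 1.79 and 270.5 ± 62.8 FPKM, a ratio of 15 and a log2 difference of 3.81.

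Among all listed genes, Tmem176b went from ranks of 2483 to 2772 by FPKM in the Initial libraries to ranks of 61, 58 and 133 in the Induced libraries. Tmem176a went from ranks of 4185 to 4783 to ranks of 204, 195 and 366. Of 11265 tested genes, 28 had a larger log2 rise than Tmem176b and 54 a larger rise than Tmem176a. For 2 of the 5 genes, the Tmem176 pair, the groups did not overlap and Induced was higher, which held for 40.0% of all tested genes. None of the 5 lay lower without overlap, which held for 35.4%. The choice of the genes used this contrast, so nothing is read from these shares. Leaving out Induced library C gave log2 differences of 4.23 for Tmem176b and 4.02 for Tmem176a, and without it 42.0% of tested genes were higher with no overlap.

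**Figure D1:**
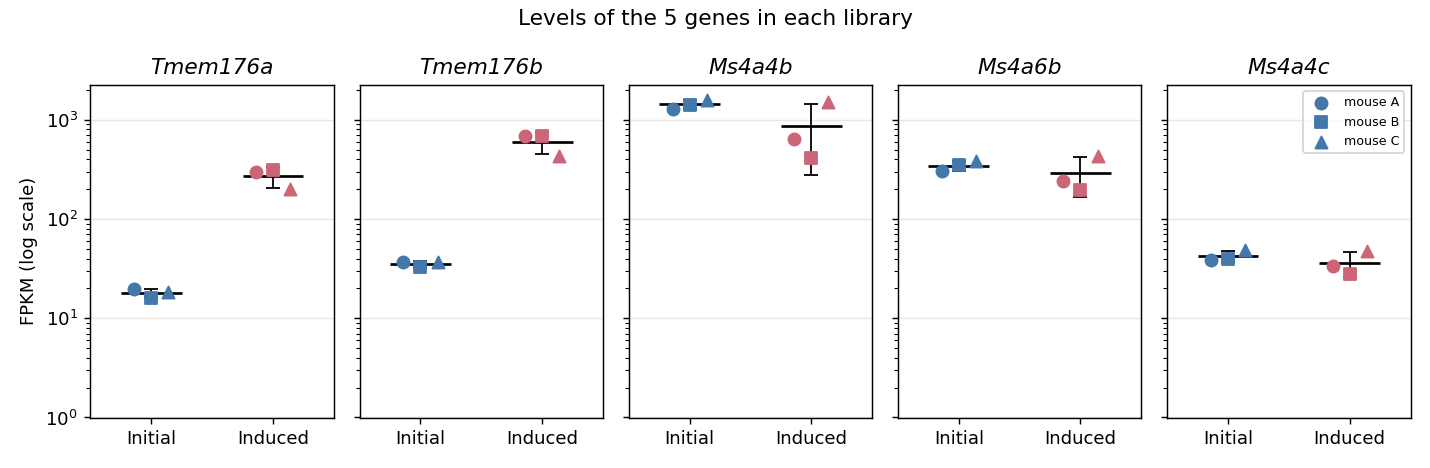
FPKM (log scale) of the 5 genes in each library; symbols are mice A, B and C, black lines are means and bars the SD over 3 libraries. The Induced libraries lie above the Initial libraries for Tmem176a and Tmem176b, while for the 3 Ms4a genes Induced library C lies among or above the Initial libraries and A and B lie below them.

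The pair kept nearly the same proportion. Tmem176b had 1.89, 2.04 and 2.0 times the FPKM of Tmem176a in Initial libraries A, B and C, and 2.27, 2.21 and 2.15 times in the Induced libraries. These ratios did not overlap between the groups, and the means, 1.98 ± 0.0746 and 2.21 ± 0.0619, differed by a factor of 1.12. The 2 genes overlap on opposite strands over 578 bases of their spans, and the sources used here do not say whether strand entered the counting. The overlap of annotated exons was 81 bases, 2.1% of the exonic bases of Tmem176a and 3.4% of those of Tmem176b. Neither gene shared any 75-base stretch of transcript with another gene.

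Genes with a pattern like that of the pair were looked for by the root mean square distance between log2 profiles over the 6 libraries, each gene centred on its mean, among 10159 tested genes. Tmem176a and Tmem176b lay 0.104 apart. Among the genes most like Tmem176a were Gstm5, a glutathione transferase gene (distance 0.132), and Il17re, a chain of the interleukin-17C receptor (0.140). Among those most like Tmem176b were Ly6g5b (0.119) and the cell cycle gene Gtse1 (0.162). Il17re had 3.49, 3.33 and 4.26 FPKM in the Initial and 65.6, 67.6 and 52.9 FPKM in the Induced libraries, with Induced C the lowest after culture. The likeness is a description over 6 libraries that fall into 2 groups. Gstm5 and Gtse1 were low before culture, at 0.794 to 1.63 and 1.60 to 1.92 FPKM. The log2(FPKM + 1) scale understates the change of such genes, so part of their likeness may come from the scale.

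**Figure D2:**
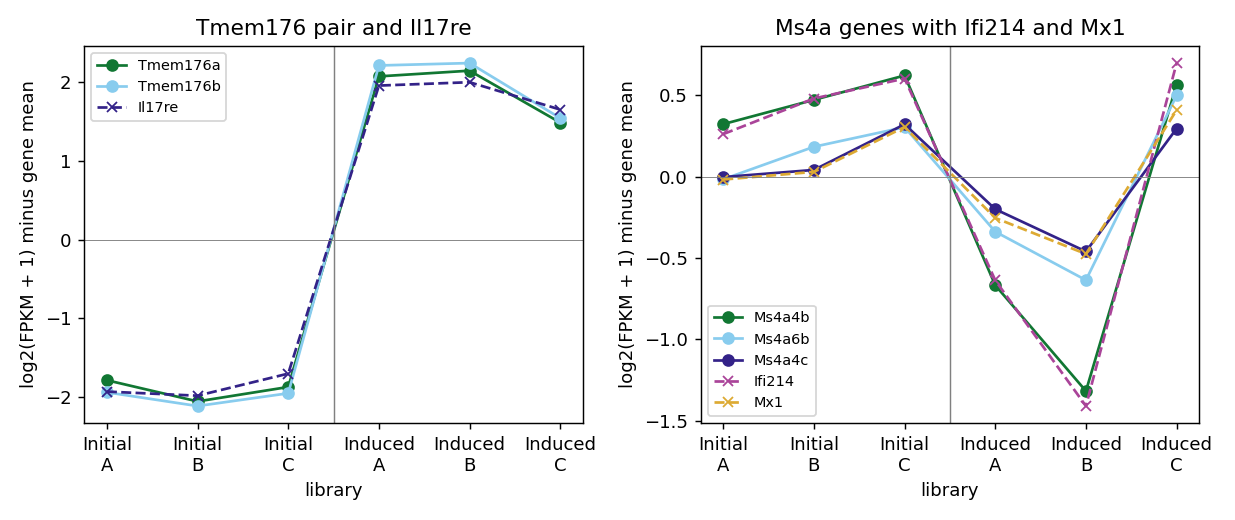
log2(FPKM + 1) minus each gene's mean, in each of the 6 libraries, for the 5 genes (solid lines) and 3 genes with a similar pattern (dashed lines); the lines only join the points of 1 gene, and the libraries of a group have no order. Left, Il17re follows Tmem176a and Tmem176b, with Induced C below A and B; right, Ifi214 follows Ms4a4b and Mx1 follows Ms4a4c, with Induced C above A and B.

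Other type 17 genes were tested with limma, a linear model with moderated variances, two-sided and with Benjamini-Hochberg adjustment over all 11265 tested genes. At an adjusted p under 0.05, 70.4% of all tested genes were called, 37.3% higher and 33.1% lower in Induced cells. These shares are the background for each count of calls in a list given here. In any list, a gene under 1 FPKM in every Induced library passed the filter through its Initial values alone. No rise could have been found for such a gene. The balance depended on scaling, with 4199 genes higher and 3732 lower as deposited but 5384 and 2676 when each library was scaled to its CD3 chain and Trdc levels. Of 22 tested genes of the type 17 list, 12 rose, 6 fell and 4 did not pass, with a median log2 fold change of 1.61 against 0.03 over all tested genes. Rora, a nuclear receptor gene, rose from 32.1 ± 3.10 to 167 ± 38.7 FPKM (log2 fold change 2.32, SE 0.17, limma adjusted p = 1.5e-05). Ltb4r1, the leukotriene B4 receptor gene, had the largest rise of the list, at 4.85, while Sox4 and Ahr, both transcription factor genes, had the largest falls, at -5.53 and -3.49. With a filter at 5 FPKM the list had 12 genes higher and 3 lower.

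Within the Induced group, most type 17 genes were lowest in library C, as was the Tmem176 pair. Library C lay below both A and B for 16 of 19 genes of the list with a mean of at least 1 FPKM in Induced cells, among them Rora, Il23r, Il1r1 and Il17a. The same position was held by 33.7% of 10378 tested genes at that level. Induced C lay 0.62 below the mean of A and B on the log2 scale for Tmem176a and 0.68 below it for Tmem176b, and 78 and 58 of the 6242 genes with a mean of at least 10 FPKM lay further below.

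Tmem176 proteins sit in membranes of the Golgi and of endosomes, and Tmem176b is reported to restrain the inflammasome, the complex that activates interleukin-1β. Of 28 tested genes for channels, proton pump subunits and membrane proteins of endosomes and lysosomes, 6 rose, 9 fell and 13 did not pass (median log2 fold change -0.13). This split depended on the scaling of the libraries, with 11 higher and 4 lower under the scaling to CD3 chain and Trdc levels. Among them Clcn3, a chloride-proton exchanger gene, rose from 12.5 ± 0.668 to 26.8 ± 0.591 FPKM, and Laptm4a from 33.2 ± 4.53 to 53.3 ± 6.04 FPKM. P2rx4, an ATP-gated channel gene, fell from 17.2 ± 1.90 to 3.86 ± 0.572 FPKM. Mcoln2, a mucolipin channel gene, had 12.7 ± 0.240 and 6.98 ± 3.56 FPKM (limma adjusted p = 0.031), and this call was lost without any Initial library or without Induced A (adjusted p = 0.0654 to 0.084). It was also lost under that scaling (adjusted p = 0.095) and with no filter (adjusted p = 0.0606).

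Of 11 tested inflammasome genes 3 rose and 6 fell (median log2 fold change -0.51). Casp1, the inflammasome protease gene, rose from 39.8 ± 3.17 to 63.0 ± 7.0 FPKM and Pycard, the adaptor gene, from 19.8 ± 2.45 to 28.6 ± 2.95 FPKM. Its substrate genes Il1b (26.6 ± 5.25 to 0.0710 ± 0.0386 FPKM) and Il18 (12.4 ± 2.41 to 0.633 ± 0.364 FPKM) fell. Nlrp3, the sensor gene, was below the filter, at 0.594 ± 0.276 and 0.206 ± 0.0902 FPKM. Macrophage markers fell beside these genes, with 10 of 10 tested called lower, against 33.1% of all tested genes. Of those tested, all but Cd68 and Lyz2 passed the filter through their Initial values alone. No rise could have been found for them, so nothing is read from this count. The part of macrophages in the falls of Il1b and Il18 was not tested. The macrophage markers summed to 554 to 1070 FPKM in Initial and 3.80 to 5.81 FPKM in Induced libraries, with Mertk at 0 in every Induced library. The 8 dendritic cell markers summed to 17.6 to 23.6 and 6.86 to 16.0 FPKM, with Clec9a at 0 after culture. Of 7 tested dendritic cell markers 4 fell and 2 rose, namely Xcr1 (0.762 ± 0.145 to 2.35 ± 0.235 FPKM) and Batf3 (1.23 ± 0.473 to 4.85 ± 2.35 FPKM), and the part of such cells in the Tmem176 values was not tested.

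The 3 Ms4a genes behaved otherwise, with groups that overlapped and wide scatter after culture. Ms4a4b and Ms4a6b were high before culture, while Ms4a4c was near the level of Tmem176b. Ms4a4b (ENSMUSG00000056290, chromosome 19, 11443553 to 11467055, plus strand) had 1284, 1424 and 1580 FPKM in Initial libraries A, B and C, which placed it at ranks 22, 16 and 14 of all genes. After culture, in the same order of mice, it had 646, 411 and 1519 FPKM, at ranks 64, 139 and 11. Induced A and B were below every Initial library, while Induced C lay among the Initial values. The means were 1429 ± 148 and 858 ± 584 FPKM, a ratio of 0.601 and a log2 difference of -0.95. Without Induced C the log2 difference was -1.47, and without Induced B it was -0.52.

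Ms4a6b (ENSMUSG00000024677, chromosome 19, 11516512 to 11531256, plus strand) had 305, 350 and 381 FPKM in the Initial and 244, 198 and 436 FPKM in the Induced libraries. Induced C was the highest of all 6 libraries, and Induced A and B were the lowest. The means were 345 ± 38.3 and 292 ± 126 FPKM, with a log2 difference of -0.32. It was -0.64 without Induced C and -0.08 without Induced B. Ms4a4c (ENSMUSG00000024675, chromosome 19, 11404770 to 11427246, plus strand) had 38.4, 39.6 and 48.4 FPKM in the Initial and 33.4, 27.7 and 47.5 FPKM in the Induced libraries. It showed the same order, with Induced A and B below all Initial libraries and C among them. The means were 42.1 ± 5.42 and 36.2 ± 10.2 FPKM, with a log2 difference of -0.24. It was -0.45 without Induced C, -0.07 without Induced B and -0.14 without Initial C. So the groups overlapped for 3 of the 5 genes. Within mice A, B and C the log2 differences were -0.99, -1.79 and -0.06 for Ms4a4b and -0.20, -0.50 and -0.03 for Ms4a4c, lower after culture in each mouse. For Ms4a6b they were -0.32, -0.82 and 0.20, higher in mouse C. Without Induced C all 3 lay below the Initial libraries, as did 40.0% of tested genes.

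The spread of these genes within the Induced group was wider than within the Initial group. The highest Induced value of Ms4a4b was 3.70 times the lowest, against 1.23 times in the Initial group. For Ms4a6b these ratios were 2.2 and 1.25, for Ms4a4c 1.71 and 1.26, for Tmem176b 1.63 and 1.13, and for Tmem176a 1.58 and 1.22. The SD of Ms4a4b over the Induced libraries, 0.96 on the log2 scale, was above that of 99.7% of 6242 genes with a mean of at least 10 FPKM, whose median SD was 0.08. The SDs of the other 4 genes were above those of 96.3 to 98.8% of these genes. In the Initial libraries the 5 genes stood at 49.5 to 81.5% of 6194 genes.

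Induced library C lay above A and B for all 3 Ms4a genes, the opposite of its place for the Tmem176 pair. The log2 gap to the mean of A and B was 1.56 for Ms4a4b, 0.99 for Ms4a6b and 0.63 for Ms4a4c, and 19, 53 and 133 of 6242 genes had a higher gap. In consequence Tmem176b had 1.05 and 1.69 times the FPKM of Ms4a4b in Induced A and B but 0.281 times in Induced C, against 0.0230 to 0.0289 times in the Initial libraries. The summed FPKM of the Tmem176 pair was 978, 1008 and 625 in Induced A, B and C, and that of the 3 Ms4a genes 923, 637 and 2002. The sum of the natural killer cell markers moved in the same way. It was 33.9, 20.6 and 93.9 FPKM in Induced A, B and C and 128 to 148 FPKM in the Initial libraries. Klrb1c, Klre1 and Eomes made up most of it, while Itga2 had 0.320, 0.270 and 0.336 FPKM in Induced A, B and C. The part of natural killer cells in the Ms4a values was not tested. Eomes, a transcription factor gene of natural killer and some T cells, had 16.3, 7.16 and 46.7 FPKM after culture. Of these markers Klra8 was at 0 in every Induced library, and Ncr1, which encodes an activating receptor of natural killer cells, had 0.220, 0.0303 and 0.109 FPKM there.

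Among themselves, Ms4a6b and Ms4a4c kept their proportion better than either did with Ms4a4b. Ms4a6b had 7.93, 8.83 and 7.87 times the FPKM of Ms4a4c in the Initial and 7.30, 7.15 and 9.18 times in the Induced libraries, and these ratios overlapped. Ms4a4b had 4.21, 4.07 and 4.15 times the FPKM of Ms4a6b before culture and 2.65, 2.08 and 3.48 times after it, with no overlap. Its ratio to Ms4a4c was 33.4, 35.9 and 32.7 before and 19.3, 14.8 and 32.0 after culture. Transcripts of Ms4a4b and Ms4a4c shared 66 of their 75-base stretches, 3.78% of those of Ms4a4c. Because Ms4a4b had many times the FPKM of Ms4a4c, reads from these stretches could still weigh on the Ms4a4c values. Their part in those values was not tested. Ms4a6b overlaps Gm19261 on the opposite strand, which was listed at 1.45 to 1.80 FPKM before and 0.079 to 0.158 FPKM after culture.

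**Figure D3:**
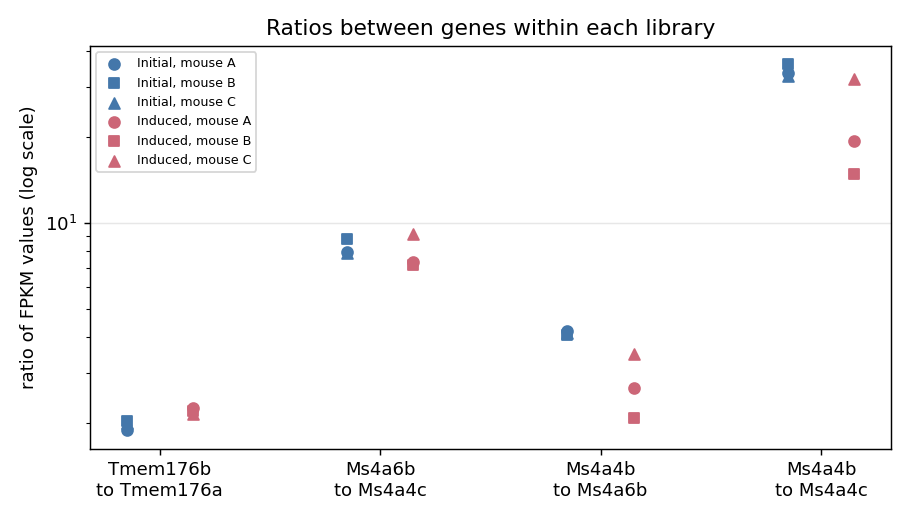
Ratios of FPKM values between genes within each library (log scale), blue for Initial and red for Induced, with symbols for mice A, B and C. Tmem176b to Tmem176a stays between 1.89 and 2.27, while the ratios of Ms4a4b to Ms4a6b and to Ms4a4c are lower in each Induced library than in each Initial library.

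The order of the levels differed between the groups. Before culture it was Ms4a4b, Ms4a6b, Ms4a4c, Tmem176b and Tmem176a in every library, with Ms4a4c at 38.4 to 48.4 FPKM and Tmem176b at 32.8 to 37.1 FPKM as the closest neighbours. In Induced libraries A and B, Tmem176b was the most abundant of the 5 and Ms4a4c the least. In Induced C the order was Ms4a4b, Ms4a6b, Tmem176b, Tmem176a and Ms4a4c, with 436 and 426 FPKM for Ms4a6b and Tmem176b.

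The genes most like Ms4a4b in pattern were Ifi214, an interferon-inducible gene (distance 0.071), Nkg7, a cytotoxic granule gene (0.137), and Hopx, a homeodomain gene (0.154). Nkg7 had 768, 701 and 856 FPKM in the Initial and 287, 198 and 729 FPKM in the Induced libraries, again with Induced C beside the Initial values. For Ms4a4c and for Ms4a6b alike the nearest gene was Mx1, an interferon-induced antiviral GTPase gene, at distances of 0.053 and 0.103. Mx1 had 2.31, 2.42 and 3.14 FPKM in the Initial and 1.81, 1.41 and 3.45 FPKM in the Induced libraries. The log2(FPKM + 1) scale understates the change of so low a gene, so part of the likeness may come from the scale. The highest Induced value of Mx1 was 2.45 times the lowest, against 1.71 times for Ms4a4c and 2.2 times for Ms4a6b. Next for Ms4a4c came Zc3h12d and Arl6ip5, both at 0.086, and for Ms4a6b Phf11c and Tbxa2r, both at 0.104. Ms4a4c and Ms4a6b lay 0.137 apart, with Ms4a4b 0.383 from Ms4a6b and 0.485 from Ms4a4c.

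Interferon-stimulated genes as a list did not share this pattern. Of 25 tested genes 14 rose, 9 fell and 2 did not pass, the latter being Mx1 and Ifit2. Over all tested genes 37.3% were called higher and 33.1% lower. Oas2 and Rsad2, which fell, passed the filter through their Initial values alone. Igtp and Gbp2, which encode interferon-induced GTPases, rose from 72.1 ± 6.28 to 1107 ± 146 FPKM and from 56.9 ± 1.92 to 359 ± 37.0 FPKM. The antiviral genes Ifit3 (18.4 ± 0.372 to 2.40 ± 0.378 FPKM) and Oas1a (25.3 ± 1.51 to 4.80 ± 0.302 FPKM) fell. Induced library C lay above A and B for 7 of 23 of these genes with a mean of at least 1 FPKM after culture and below them for 13, against 46.1% and 33.7% of all 10378 genes.

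Tnfrsf18 encodes GITR, the receptor with which the Ms4a4b protein associates. It had 111, 105 and 112 FPKM in the Initial libraries and 56.6, 56.5 and 84.2 FPKM in the Induced libraries, so C was again the highest after culture. It fell from 109 ± 3.59 to 65.8 ± 16.0 FPKM (log2 fold change -0.75, SE 0.15, limma adjusted p = 0.0027). In the list of GITR, its signalling partners and related costimulatory receptors, 3 of 11 tested genes rose, 6 fell and 2 did not pass. The costimulatory receptor genes Cd28 (104 ± 10.2 to 10.9 ± 5.09 FPKM) and Cd27 (185 ± 5.85 to 22.8 ± 13.2 FPKM) fell. Icos (37.0 ± 2.5 to 77.0 ± 21.1 FPKM), a further costimulatory receptor gene, and Siva1 (11.95 ± 2.02 to 38.3 ± 0.756 FPKM), whose product binds CD27, rose.

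The rest of the MS4A family was low after culture. The tables list 11 further Ms4a genes and no further Tmem176 gene. Of the 6 that passed the filter on low values, 5 fell, none rose and Ms4a6d did not pass. Of all tested genes 33.1% were called lower. Ms4a7, Ms4a4a and Ms4a4d passed the filter through their Initial values alone, so no rise could have been found for them. Nothing is read from this count. Ms4a1, which encodes CD20, had 27.7, 33.1 and 34.4 FPKM in the Initial and 5.05, 3.01 and 1.79 FPKM in the Induced libraries. Its groups did not overlap (log2 fold change -3.00, SE 0.26, limma adjusted p = 4.6e-05). The 10 markers of B cells moved with it, summing to 203 to 245 FPKM before and 24.2 to 47.5 FPKM after culture, and 8 of 8 tested fell. Of these, Ebf1, Fcer2a and Cr2 passed the filter through their Initial values alone, so no rise could have been found for them. Ms4a7, a macrophage gene, went from 3.55 ± 1.03 to 0.0473 ± 0.0424 FPKM (limma adjusted p = 2e-05), and Ms4a4a, also known from macrophages, from 3.64 ± 1.5 to 0.158 ± 0.0593 FPKM (limma adjusted p = 0.00011). The macrophage markers named above moved with both, and the part of other cell types in these falls was not tested.

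Ms4a6c, Ms4a4d and Ms4a6d are further genes of the cluster on chromosome 19. Ms4a6c fell from 8.60 ± 2.99 to 3.80 ± 0.643 FPKM (log2 fold change -0.96, SE 0.22, limma adjusted p = 0.0047), but 47.7% of its 75-base stretches also occur in BE692007, so its level is uncertain. Ms4a4d fell from 1.26 ± 0.119 to 0.317 ± 0.228 FPKM (limma adjusted p = 0.0015). Ms4a6d had 5.96, 5.49 and 5.50 FPKM in the Initial and 2.51, 1.57 and 6.62 FPKM in the Induced libraries, with Induced C above all others, as for Ms4a6b. It did not pass (limma adjusted p = 0.13), and without Induced C it fell, with a log2 fold change of -1.15 and an adjusted p of 0.000296. Ms4a2, Ms4a3, Ms4a8a, Ms4a14 and Ms4a15 were below the filter, with no value above 0.665 FPKM in any library. Although the windows printed above matched closely, Ms4a6b had 25.5 to 61.9 times the FPKM of Ms4a6c in the Initial libraries and 44.3 to 137 times in the Induced libraries.

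**Figure D4:**
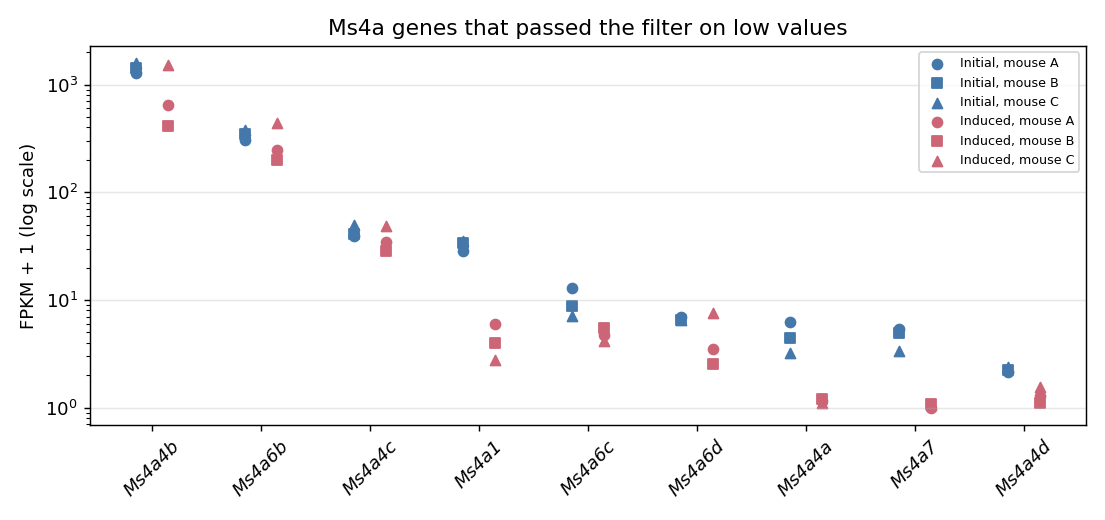
FPKM + 1 (log scale) of the Ms4a genes that passed the filter on low values, by library, blue for Initial and red for Induced, with symbols for mice A, B and C. Ms4a4b, Ms4a6b and Ms4a4c stand highest, and for these genes, Ms4a6d and Ms4a4d Induced library C lies above A and B.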

How the data were processed

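Messenger RNA libraries of 3 Initial and 3 Induced samples were used, grouped by the sample titles. The authors deposited FPKM values, 1 table per library, made with Cuffdiff per the labels' protocols. The submitters' processing notes name build mm9 and the tools Cuffdiff (1.3.0 and 2.2.1), HISAT2 2.0.5 and CASAVA. The tables' spans contain those of the GRCm38 annotation for 90.72% of matched genes, so positions are given in GRCm38. No value of 0 is listed, and a gene missing from a table was set to 0, so a 0 may stand for a failed estimate. In 24 symbols turned into dates, names were restored from gene identifiers. Depth was estimated from low values in genes with 1 transcript, where 43.7 to 49.0% of low values lay within 0.15 of a whole fragment (30% by chance), so it is rough.

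Genes with at least 1 FPKM in at least 3 libraries were tested with limma 3.58.1 under R 4.3.3 on the log2(FPKM + 1) scale, with trend and robust settings and no block. The script was tested on simulated data in which few genes changed, unlike here, so that trial does not bear on the scaling of these libraries. On this scale the change of low genes is understated. P-values were adjusted by Benjamini-Hochberg over 11265 genes. The labels name the same mice in both groups, which pairs the libraries by animal. Deviations from the group means correlated at 0.0393, 0.0307 and 0.1308 for mice A, B and C, and the highest value between different mice was 0.0988. P-values measure the spread between the 3 libraries of each group, moderated over genes. With 1 library per mouse in each group, differences between mice and between preparations cannot be told apart in it. Culture and purification differ together between the groups and cannot be told apart.

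The genes and lists were chosen with earlier results of these data known, so the 5 genes carry no test. Named beside them were all other Ms4a genes, from each list the 2 largest rises and falls past the threshold with at least 5 FPKM, 4 fixed genes and the 3 genes most similar in pattern to each. Some genes that this rule names are not reported here. Predicted genes, Rik clones and receptor or immunoglobulin segments were passed over in the search for similar genes. Alternatives were pseudocounts of 0.1 and 5, no filter, a filter at 5 FPKM, 4 scalings, a block for the mouse, moderation without trend, and fits that leave out 1 library at a time. Biopython 1.88 aligned the promoters, matplotlib 3.10.9 drew the figures, and tables used pandas 2.3.3 and numpy 2.4.6 in Python 3.11.15. Marker lists of neutrophils, mast cells and red cells were also measured and are given at the end.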

Additional observations from a re-analysis of the deposited data

How the results depend on the processing

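The direction of the difference of each of the 5 genes was the same under all 16 alternatives. The changes of filter, the block and moderation without trend cannot alter this difference. The genes were chosen on this contrast in these libraries, so the shared direction is only a description. The log2 difference ran from 3.56 to 4.03 for Tmem176a, 3.87 to 4.23 for Tmem176b, -1.47 to -0.52 for Ms4a4b, -0.64 to -0.08 for Ms4a6b and -0.45 to -0.02 for Ms4a4c. The last 2 ranges come close to 0. Scaling to the CD3 chains and Trdc moved the median of all tested genes from 0.03 to 0.23. It gave 5384 genes higher and 2676 lower, against 4199 and 3732 with the values as deposited, and it gave the difference of -0.02 for Ms4a4c. With a filter at 5 FPKM, 2 of 3 tested further Ms4a genes were called lower, in place of 5 of 6, because fewer were tested. The total calls of each other list stayed within 1.5 times, but their split did not always: with this filter type 17 genes lower went from 6 to 3 and tetraspanin genes lower from 11 to 7, and under the CD3 and Trdc scaling the endolysosomal list went from 6 higher and 9 lower to 11 and 4. With the mouse as a replicate block 7943 genes were called, against 7931, and no call of a named gene changed. FPKM tables hold no counts, so error from depth is known only roughly, and values under 1 FPKM rest on few fragments.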

Other observations

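Other families of proteins that cross the membrane in a similar way were also measured. Of 18 tested tetraspanin genes 4 rose, 11 fell and 3 did not pass (median log2 fold change -0.65 against 0.03 over all tested genes). Over all tested genes 37.3% were called higher and 33.1% lower. Tspan6, Tspan9 and Tspan33 passed the filter through their Initial values alone, so no rise could have been found for them. Cd81, a widely expressed tetraspanin gene, fell from 53.9 ± 12.7 to 1.79 ± 0.734 FPKM (SD, n = 3), and Cd9 from 84.5 ± 2.62 to 16.9 ± 2.41 FPKM. Cd81 had 65.5, 55.9 and 40.2 FPKM in Initial libraries A, B and C, where the 11 macrophage markers summed to 1070, 898 and 554 FPKM. These markers and those of B cells fell as well, and their part in the tetraspanin falls was not tested. Tspan31 (32.9 ± 3.99 to 92.4 ± 6.71 FPKM) and Tspan3 (26.5 ± 2.87 to 37.9 ± 4.89 FPKM) rose. Of 9 tested genes of the MARVEL and PMP22 type 5 rose and 3 fell (median 0.60). Plp2 went from 22.3 ± 2.41 to 159 ± 5.88 FPKM and Cmtm6, which stabilises PD-L1, from 96.3 ± 3.00 to 315 ± 55.5 FPKM. Perp (7.33 ± 1.24 to 0.664 ± 0.0620 FPKM) and Sypl (18.6 ± 0.633 to 9.18 ± 2.02 FPKM) fell.

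Among 10 tested genes of calcium entry 4 rose and 5 fell (median -0.28). Orai1, the pore of the store-operated calcium channel, fell from 135 ± 12.8 to 32.9 ± 2.05 FPKM and its regulator gene Saraf from 493 ± 16.4 to 227 ± 13.8 FPKM. The potassium channel gene Kcna3 (34.3 ± 5.46 to 77.7 ± 3.43 FPKM) and Tmem110 (6.09 ± 0.363 to 13.6 ± 1.23 FPKM) rose.

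Red cell markers summed to 863 to 1280 FPKM in Initial and 0.848 to 1.03 FPKM in Induced libraries. Neutrophil markers summed to 1.20 to 19.6 and 0.679 to 4.91 FPKM, and mast cell and basophil markers to 9.37 to 13.5 and 8.35 to 21.4 FPKM. In the last list Prss34, a basophil protease gene named here after its values were seen, had at most 0.0397 FPKM before culture. After culture it had 10.5 FPKM in mouse A, 5.19 in mouse B and 2.96 in mouse C.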
